A study of Mus musculus with 96 samples.

Results

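The vesicular glutamate transporter genes Slc17a6 (vGLUT2), Slc17a7 (vGLUT1) and Slc17a8 (vGLUT3) and the glutamine synthetase gene Glul were followed through single neurons of the mouse lateral superior olive (LSO). These 4 genes were taken by symbol from the 38887 genes of the table, through their Ensembl identifiers and Gencode vM21, and all 4 were found. The choice was made by name, with earlier results of these data known. Glul was grouped under the heading of glutaminase, but it codes for glutamine synthetase, the enzyme of the opposite reaction.

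Vesicular glutamate transporters load glutamate into synaptic vesicles, and a neuron that releases glutamate needs at least 1 of them. In the adult brain, vGLUT1 and vGLUT2 divide most glutamatergic neurons between them, with vGLUT2 prevailing in the brainstem and thalamus, whereas vGLUT3 is also found in neurons that release another transmitter. In the glutamate-glutamine cycle, released glutamate is taken up largely by astrocytes, where glutamine synthetase turns it into glutamine. Neurons take glutamine back through carriers of the SLC38 family and form glutamate from it again.

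Neurons of untreated C57BL/6J mice of both sexes at postnatal day 11 ± 1 were recorded in brainstem slices. Their cytoplasm, together with the nucleus, was then drawn into the patch pipette for sequencing (patch-seq). The firing-pattern label sorted the neurons into principal LSO neurons (pLSOs), which project upwards and process interaural level differences, and lateral olivocochlear neurons (LOCs), which project to the cochlea. The pLSOs carried the labels Onset or Sustained, after the spike pattern, and the LOCs the label Delayed. Negative controls (NCs) came from pipettes that only touched the slice and were processed like neurons, so they report transcripts free in the tissue.

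Of 86 labelled neurons and 10 NCs, 80 neurons (41 Onset, 11 Sustained and 28 LOC) and 8 NCs were compared. The other 8 libraries (cell_36, cell_39, cell_40, cell_54, cell_78, cell_85, NC5 and NC6) were left out, because in earlier work on these data their labels or values went against a supplementary table of the study. That comparison was not repeated here, and results with all labelled libraries are given below. The labels name no animal, so each class counts as 1 sample. No test was made between classes, SDs describe the spread over neurons only, and intervals of shares (exact Clopper-Pearson, 95%) cover counting error only. For 0 of n neurons, the limit given is 3 over n, likewise for counting error, and it limits neurons with a listed value, not neurons that express the gene. Neurons held a median of 2495.5 genes at 1 TPM or more (range 1175 to 6276), and NCs held 821 (285 to 1271). All 10 neuron markers examined were found among pLSOs and among LOCs, with medians of 9 and 8.5 markers per library, against 4.5 in NCs. Their summed level did not set NCs apart. Rescaled to gene length, as described below, the sums had medians of 3861.5 in pLSOs, 2769.4 in LOCs and 3432.8 in NCs.

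The values are TPM, a measure scaled to gene length and library depth, in whole numbers, so anything under 0.5 TPM is listed as 0. The smallest step between values grew with the row of the table, which is ordered by Ensembl identifier, and it followed the gene lengths sorted by size, not the length of the gene in that row. In 8 windows of rows, the last of them around row 8500, steps and sorted lengths differed by at most 6.18%. Later rows were not checked, and several of the neuron, astrocyte and microglia markers summed in this report lie in them. This relation, found after the values had been seen, gave the number of reads behind a value as an estimate. Neurons had an estimated 187760 to 3224600 reads (median 807310), and NCs 3455.3 to 145510 (median 34874). It also means that TPM of different genes are not on 1 scale. Levels are compared between genes only after rescaling to each gene's own length, and TPM otherwise serves to compare a gene with itself across neurons.

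Slc17a6, on chromosome 7 (GRCm38, 51622006 to 51671119, plus strand, ENSMUSG00000030500), was the vesicular glutamate transporter gene found in these neurons. It was detected, at 1 TPM or more, in 36 of 52 pLSOs (69.2%, interval 54.9 to 81.3) and in 7 of 28 LOCs (25.0%, 10.7 to 44.9). The pLSOs had a mean of 52.3 ± 75.8 TPM (SD, n = 52), a median of 17.5 TPM and a highest value of 390 TPM. The LOCs had a mean of 11.3 ± 58.0 TPM (SD, n = 28) and a median of 0 TPM.

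The LOC values separated into a lone neuron and the rest. The LOC cell_76 held 307 TPM, 1 further LOC held 3 TPM, 5 LOCs held 1 TPM and 21 were listed at 0. Leaving out the highest neuron of each class gave means of 45.6 TPM for pLSOs and 0.296 TPM for LOCs. In pLSOs, by contrast, 32 of 52 neurons held 10 TPM or more, and 3 held 1 TPM.

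**Figure D1:**
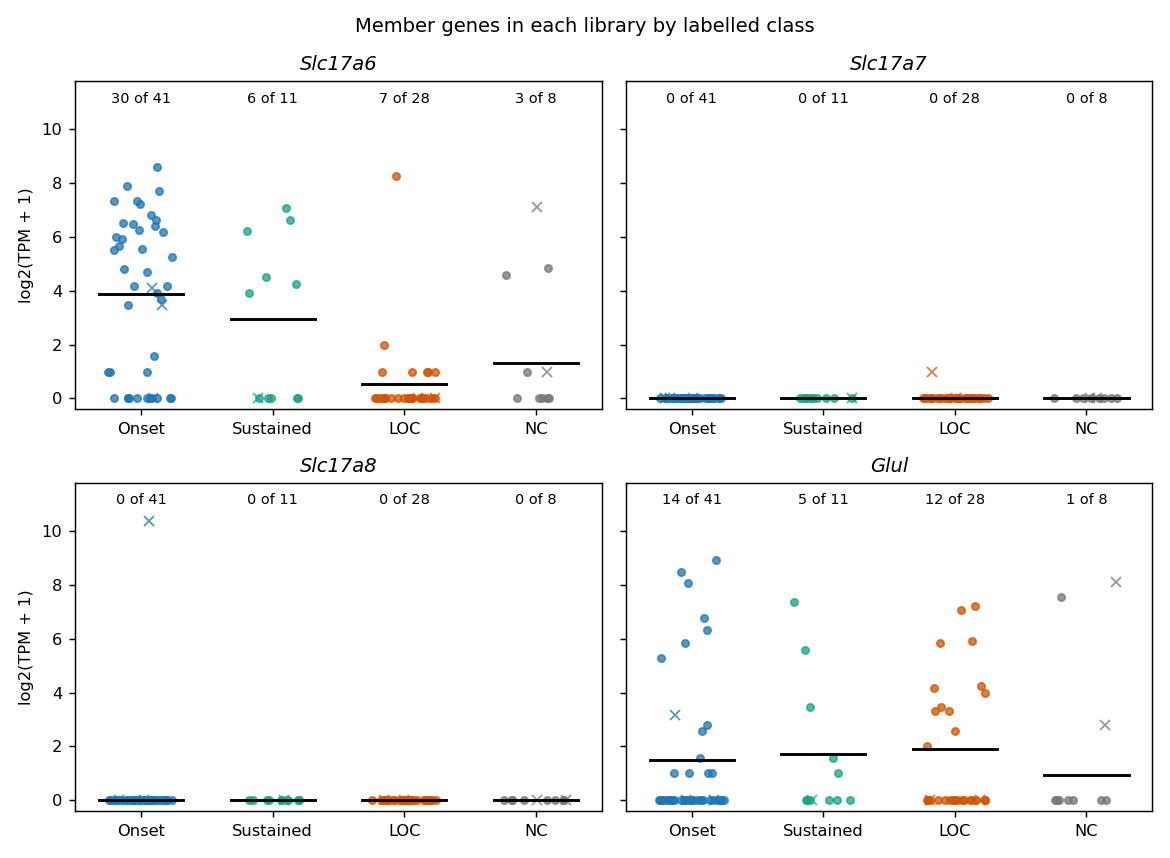
Each point is the log2(TPM + 1) of a library for Slc17a6, Slc17a7, Slc17a8 and Glul, by class. Crosses are the 8 libraries left out, black lines are means of the compared libraries, and the counts above are libraries at 1 TPM or more. Slc17a6 fills the range up to 390 TPM in pLSOs and stays at 3 TPM or below in 27 of 28 LOCs, Slc17a7 and Slc17a8 are at 0 in every compared library, and Glul is scattered over all classes.

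On the scale of mean log2(TPM + 1), Slc17a6 was 3.14 higher in pLSOs than in LOCs, from 3.68 ± 2.97 (SD, n = 52) against 0.55 ± 1.60 (SD, n = 28). It was thus among the 721 genes that were higher in pLSOs by 1 or more, which is 6.99% of the 10319 genes found in at least 5% of neurons. Of these genes, 31 had a larger difference, and the median over all of them was 0.07. Despite the distance between the means, the classes overlapped, because 16 pLSOs were at 0 and cell_76 lay above all but 1 of the pLSOs. With all 86 labelled neurons, the difference was 3.05 and the shares were 67.9% of 56 pLSOs and 23.3% of 30 LOCs.

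Estimated reads restate the same TPM values by library depth, so they are no separate evidence of a class difference. Where Slc17a6 was detected, the median was about 354 estimated reads in pLSOs (4.52 to 2801.6) and about 3.60 in LOCs. The LOCs ranged from 2.89 to 8.31 estimated reads except for cell_76, with 5010.5. At a threshold of 10 estimated reads, 34 of 52 pLSOs (65.4%) and 1 of 28 LOCs (3.57%) held the gene. The libraries held a median of 882080 estimated reads in pLSOs and 722830 in LOCs. A median of 3.40 reads was needed to reach 1 TPM in a pLSO and 2.27 in a LOC. The 16 pLSOs at 0 could have shown the gene from 0.671 to 7.44 reads (median 3.10).

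**Figure D2:**
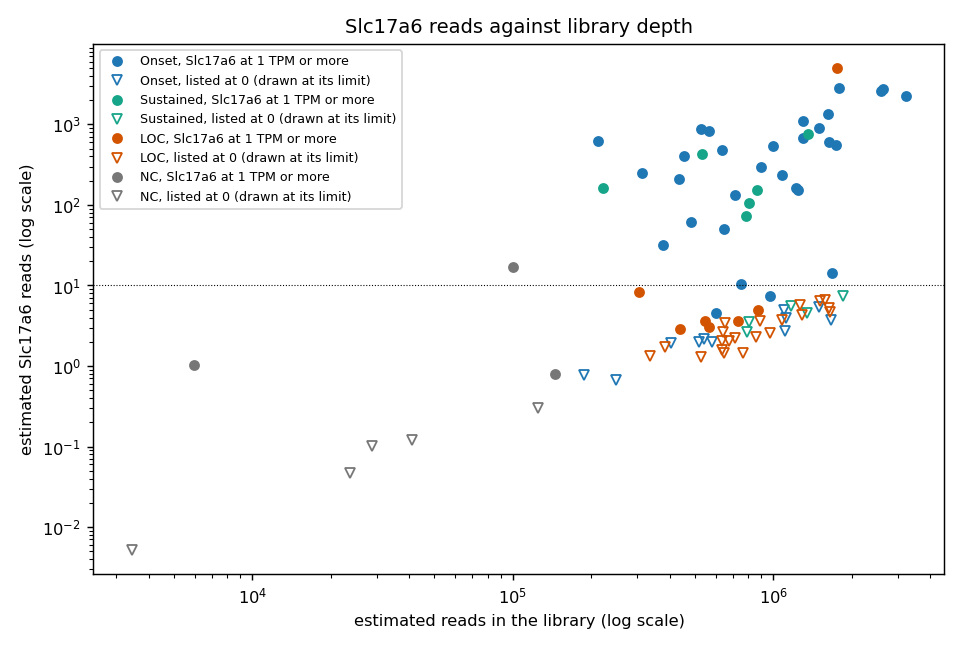
Estimated Slc17a6 reads (log scale) are plotted against the estimated reads of the library (log scale). Filled circles are libraries at 1 TPM or more, open triangles are libraries listed at 0, drawn at the number of reads that would have shown the gene, and the dotted line marks 10 reads. Above the line lie 34 pLSOs, the LOC cell_76 with 5010.5 reads and 1 NC with 16.8 reads, and the other 6 LOCs with the gene lie just above the triangles.

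Slc17a6 was also detected in 3 of 8 NCs (37.5%, 8.52 to 75.5), at 23, 28 and 1 TPM, which were 16.8, 1.03 and 0.801 estimated reads. The share of LOCs was below that of the NCs, although NC libraries were shallower, and outside cell_76 the reads in LOCs did not exceed those of the highest NC. No expression is therefore read from the weak LOC values. More reads than in the highest NC were found in 32 pLSOs and in cell_76. As a share of the library's reads, 25 pLSOs and cell_76 were above the highest NC. The NC6 library, left out, held 138 TPM of Slc17a6 or 297 estimated reads, and 19 pLSOs and cell_76 had more reads than that. As a share of the library's reads, 6 pLSOs and cell_76 were above NC6.

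The neuron cell_76 had no listed value for the peptide genes typical of LOCs, and its physiology fell into their range. The peptide gene Calca (CGRP) was listed at 0 in it, against a median of 925.5 TPM over the 28 LOCs, and so were Ucn (urocortin, median 26 TPM), Gad2 (a GABA-synthesising enzyme, median 6 TPM) and all other transmitter genes examined. Spp1 (osteopontin), which 50 of 52 pLSOs held, was also listed at 0. Sparcl1, at 180 TPM in cell_76, went the other way, with medians of 7.5 TPM in LOCs and 253 TPM in pLSOs. Its library was deep, with 3111 genes and about 1759400 reads. All 16 electrophysiological features of cell_76 fell into the range of the other LOCs, and 7 of them fell into the range of the pLSOs. The Delayed label rests on the spike pattern in the same recordings, so this is no separate evidence of class. The LOC ranges were also wide, as for input resistance (58.8 to 903.9 MOhm). The input resistance was 460.8 MOhm, against a highest value of 147.4 MOhm in pLSOs and a median of 550.45 MOhm in the other LOCs. The half-width of the action potential was 1.19 ms, with 0.87 ms as the longest in pLSOs. The sag was 0.2 mV and the smallest sag of a pLSO 1.8 mV. The other 6 LOCs with Slc17a6 all held Calca (801 to 2114 TPM) and Ucn (11 to 73 TPM).

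Among pLSOs, Slc17a6 was detected in 30 of 41 Onset neurons (73.2%, 57.1 to 85.8) and in 6 of 11 Sustained neurons (54.5%, 23.4 to 83.3). In Sustained neurons, the values were 134, 99, 73, 22, 18 and 14 TPM, and the remaining 5 were listed at 0. Onset neurons reached 390 TPM with a median of 25 TPM, and the mean was 57.5 ± 81.4 TPM (SD, n = 41) against 32.7 ± 47.2 TPM (SD, n = 11). On the log2 scale Onset neurons were 0.91 higher, less than the SDs of 2.97 and 3.00 over neurons, and under the 1 that counted as a difference. With all labelled neurons this value was 1.07. The order of mean log2(TPM + 1) was Onset, Sustained, NC and LOC, with 3.88, 2.96, 1.31 and 0.55, and no neighbours in it were further apart than the larger of their SDs.

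Slc17a7, on chromosome 7 (45163949 to 45176142, plus strand, ENSMUSG00000070570), was listed at 0 in all 80 neurons and all 8 NCs, which allows a share of neurons with a listed value of up to 3.75%. The table is blunt for this gene. Its row comes late, and by the relation above an estimated 3.92 to 103 reads (median 17.5) were needed to reach 1 TPM. The relation was checked only up to about row 8500, and this gene is in row 20043. Low levels of vGLUT1 transcript may thus not have been detectable.

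Slc17a8, on chromosome 10 (89574020 to 89621253, minus strand, ENSMUSG00000019935), was likewise listed at 0 in all 80 neurons and all 8 NCs. Here the table is sharp. In 78 of 80 neurons 1 read would have been listed, at a median of 2.59 TPM, and the other 2 needed at most 1.14 reads. The limit of 3.75% applies to neurons with a listed value here too. Outside the compared libraries, Slc17a7 was at 1 TPM in cell_85 and Slc17a8 at 1340 TPM in cell_40.

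Of the other carriers of the SLC17 family, which transport phosphate, sialic acid or nucleotides, 3 of 6 were seen in any neuron. Slc17a5 (sialin) was detected in 4 of 52 pLSOs and 3 of 28 LOCs, and Slc17a9, the vesicular nucleotide transporter, in 8 and 3. None of them differed between the classes by 1 or more on the log2 scale.

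Glul, on chromosome 1 (153899944 to 153909723, plus strand, ENSMUSG00000026473), did not differ by 1 or more on the log2 scale between the compared pLSOs and LOCs. It was detected in 19 of 52 pLSOs (36.5%, 23.6 to 51.0) and in 12 of 28 LOCs (42.9%, 24.5 to 62.8). The pLSOs ranged up to 483 TPM around a mean of 31.4 ± 92.4 TPM (SD, n = 52), and the LOCs up to 147 TPM around 17.2 ± 37.8 TPM (SD, n = 28). Both medians were 0 TPM, and the ranges overlapped throughout.

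The direction of the Glul difference depended on the summary. Means of TPM were 1.83-fold higher in pLSOs, where 3 Onset neurons held 271, 357 and 483 TPM. On the scale of mean log2(TPM + 1), pLSOs were lower, with a difference of -0.36 between 1.53 ± 2.67 and 1.90 ± 2.48 (SD, n = 52 and 28). In neurons with at least 2000 genes, 16 of 44 pLSOs and 12 of 22 LOCs held the gene. In these neurons the difference was -1.05, which passed the size of 1 that counted as a difference. Within the pLSOs, 14 of 41 Onset neurons (34.1%) and 5 of 11 Sustained neurons (45.5%) held Glul, and the Sustained values were 166, 47, 10, 2 and 1 TPM. At 10 estimated reads, 10 of 52 pLSOs (19.2%) and 10 of 28 LOCs (35.7%) held it. The order of mean log2(TPM + 1) was LOC, Sustained, Onset and NC, and all neighbours lay within their SDs.

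Glul marks astrocytes in the brain, so the markers of other cells are given beside it. It was listed in 1 of 8 NCs (12.5%, 0.316 to 52.7), at 189 TPM or 40.4 estimated reads, and 9 pLSOs and 5 LOCs had more reads than that. As a share of the library's reads, 4 pLSOs and 0 LOCs were above that NC. After rescaling to gene length, the sum of 15 astrocyte markers had a median of 508 in pLSOs (1.05 to 3443.1), 941 in LOCs (0.451 to 3608.8) and 399 in NCs (32.3 to 12885). Several of these markers lie in rows where the rescaling was not checked. All 15 markers were found among pLSOs, and 3 of 15 were at 0 in every LOC. At least 1 astrocyte marker was found in all 80 neurons, with and without Glul. Over the 80 neurons, Glul and the summed markers, both as log2(rescaled TPM + 1) from the same libraries, had a Pearson r of 0.16 (0.21 in pLSOs and 0.05 in LOCs). The part of other cells in the Glul values was not tested.

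After rescaling to gene length, Slc17a6 had means of 223 and 54.3 rescaled TPM in pLSOs and LOCs, against 53.9 and 32.6 for Glul. Without the highest neuron of each class, the means were 192 and 1.09 for Slc17a6 and 39.7 and 23.4 for Glul. Slc17a6 was thus the more abundant member in pLSOs, whereas its higher mean in LOCs rested on cell_76 and turned without it. On the same scale, Got1, the cytosolic aspartate aminotransferase, had 523 and 465.

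Of 5 glutamine carriers found in enough neurons, 2 were higher in pLSOs by 1 or more. Slc38a2 (SNAT2) was detected in 46 of 52 pLSOs and 22 of 28 LOCs, with medians of 427.5 and 27 TPM, and was 2.87 higher in pLSOs on the log2 scale. Slc38a1 (SNAT1) was detected in 43 of 52 pLSOs and 17 of 28 LOCs, with medians of 121 and 1 TPM, and was 2.16 higher. NCs held Slc38a1 in 1 and Slc38a2 in 2 of 8 libraries, the latter at up to 2546 TPM. Slc38a3 (SNAT3), the carrier typical of astrocytes, was found in 5 pLSOs and 1 LOC and differed by 0.50. Slc38a6, found in 3 pLSOs and 4 LOCs, and Slc38a7, found in 4 and 0, differed by -0.39 and 0.27. Beside these values, 3 of the 10 neuron markers were also higher in pLSOs by 1 or more.

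Of the plasma membrane glutamate carriers, Slc1a1 (EAAC1), the neuronal type, was found in 24 of 52 pLSOs and 7 of 28 LOCs and was 1.49 higher in pLSOs. The astrocyte carriers Slc1a2 (GLT-1) and Slc1a3 (GLAST) differed by 0.20 and -0.70. In all, 3 of the 19 pathway genes found in enough neurons were higher in pLSOs by 1 or more, all of them carriers, and 0 were higher in LOCs. Over all genes these shares were 6.99% and 4.68%. The median difference of the 19 genes was 0.27.

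Over all compared neurons, enzymes that form glutamate by other routes differed by less than 1 between the classes. Got1 was found in 41 of 52 pLSOs and 22 of 28 LOCs, with medians of 199.5 and 264.5 TPM and a difference of 0.27. In neurons with at least 2000 genes, its difference was 1.003, which passed 1, beside 1.06 for Slc1a1 and -0.21 for Glud1. Glud1, glutamate dehydrogenase, was found in 25 and 13 neurons and differed by -0.68. Among mitochondrial carriers, Slc25a12, an aspartate-glutamate exchanger, was found in 23 pLSOs and 15 LOCs and differed by -0.14.

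Between Onset and Sustained neurons, 3 of the 19 genes were higher in Sustained neurons by 1 or more, namely Aldh18a1, Slc1a1 and Slc1a3, and 2 were higher in Onset neurons. Over all genes, 1066 (10.3%) were higher in Sustained and 493 (4.78%) in Onset neurons. Aldh18a1, which channels glutamate into proline synthesis, was found in 4 of 41 Onset and 4 of 11 Sustained neurons and was 2.48 lower in Onset neurons. Slc1a1 and Slc1a3 were 1.50 and 1.49 lower, and after rescaling to gene length the difference of Slc1a3 was -0.73. The mitochondrial carriers Slc25a22 and Slc25a13 were 1.12 and 1.05 higher in Onset neurons. They rest on few neurons, as Slc25a22 was found in 12 Onset and 2 Sustained neurons and Slc25a13 in 7 and 0, and after rescaling to gene length their differences were 0.91 and 0.66. Beside these values, 7 of 9 microglia markers and 4 of 12 astrocyte markers, Slc1a3 among the latter, were higher in Sustained neurons. The sum of the microglia markers, rescaled to gene length, had medians of 1859 and 278 in Sustained and Onset neurons, with ranges of 2.24 to 25181 and 0 to 16438. Most microglia markers lie in rows where the rescaling was not checked. None of the 10 microglia markers was at 0 in all neurons of either type, and the part of other cells in these differences was not tested.

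**Figure D3:**
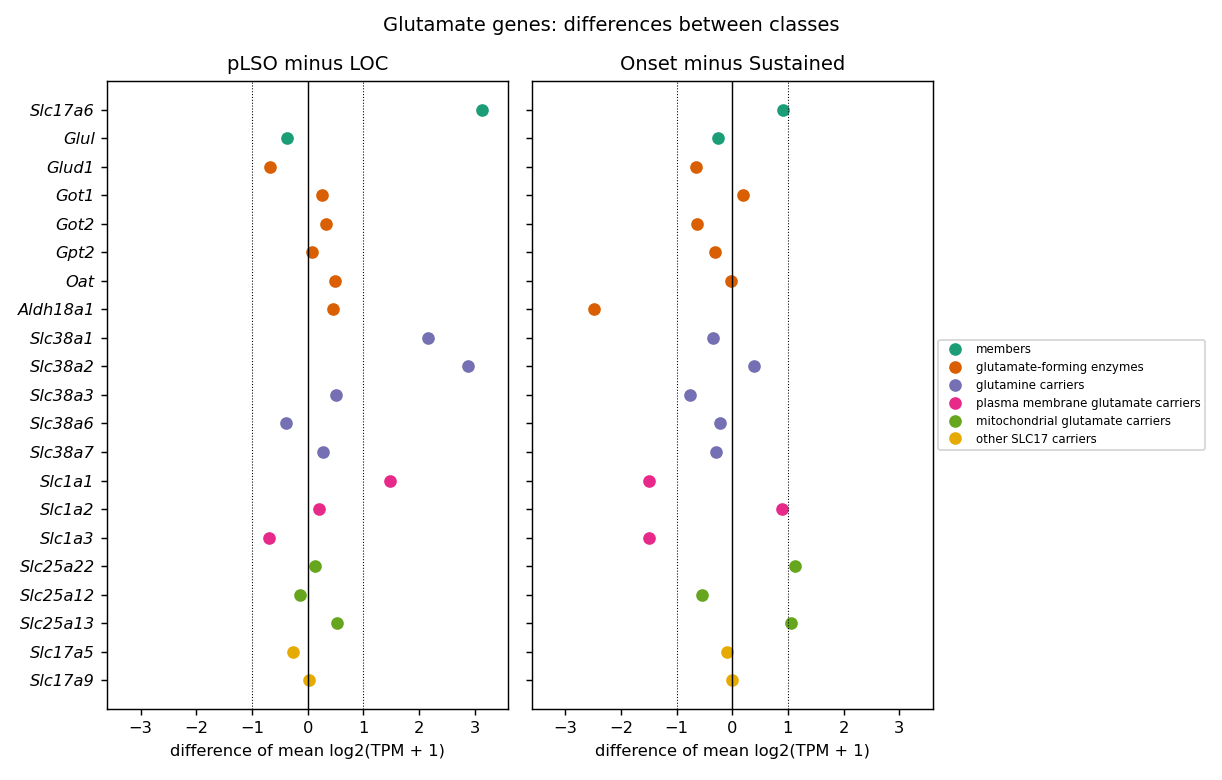
Differences of mean log2(TPM + 1) are shown for the 2 detected members and 19 other genes of the glutamate pathway found in at least 5% of neurons, pLSO minus LOC on the left and Onset minus Sustained on the right. Dotted lines mark 1 and -1, and colours mark the list of the gene. Aldh18a1 has the colour of the glutamate-forming enzymes, although it channels glutamate into proline synthesis. Slc17a6, Slc38a2, Slc38a1 and Slc1a1 lie beyond 1 on the left, and Aldh18a1 lies furthest out on the right, at -2.48.

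Genes of inhibitory transmission were found beside Slc17a6 in part of the pLSOs. Of 52 pLSOs, 26 (50.0%, 35.8 to 64.2) held Slc17a6 without Gad2 or Slc6a5 (the glycine transporter GlyT2), 10 (19.2%, 9.63 to 32.5) held it with either, 7 (13.5%) held only an inhibitory gene and 9 (17.3%) held neither. Gad2 was present in 8 of the 36 pLSOs with Slc17a6 (22.2%) and in 13 of all 52 (25.0%). At 10 TPM, the pLSOs with both kinds of gene were 4 of 52 (7.69%), and at 10 estimated reads 7 of 52 (13.5%). The NCs held Gad2 in 3 of 8 libraries (37.5%, up to 28 TPM) and Slc6a5 in 1, at 1 TPM, so a low value of Gad2 in a pLSO is not told apart from what the NCs held. With Gad1 and Slc32a1 (the vesicular inhibitory amino acid transporter) added, 13 pLSOs held both kinds and 7 held neither.

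**Figure D4:**
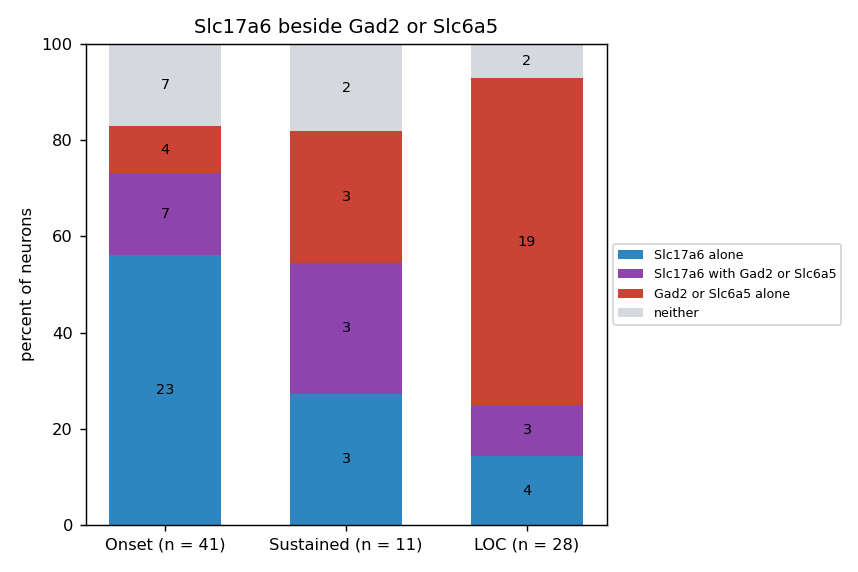
Bars give the percent of Onset, Sustained and LOC neurons with Slc17a6 alone, with Slc17a6 and Gad2 or Slc6a5, with Gad2 or Slc6a5 alone, and with neither, at 1 TPM or more, with numbers of neurons in the bars. Slc17a6 alone is the largest part in Onset neurons (23 of 41), and Gad2 or Slc6a5 alone in LOCs (19 of 28).

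Beside Gad2, in 8 of these 36 pLSOs, Gad1 was found in 5 and Slc6a5 in 4. The vesicular monoamine transporter Slc18a2 was found in 6 of the 36 pLSOs with Slc17a6 and in 7 of all 52, up to 207 TPM. It was found in no LOC, which allows a share of up to 10.7%. Calca was found in 8 of the 36 and in 15 of all 52 pLSOs, at a mean of 2.60 TPM over the class. The NCs held Calca in 5 of 8 libraries, at up to 315 TPM and a mean of 51.9 TPM, so no expression in pLSOs is read from it. Slc18a2 was at 0 in all 8 NCs, but so few libraries allow a share of up to 37.5%, above the 13.5% of pLSOs with the gene. Glul was found in 9 of the 36. The cholinergic gene Chat was in none of the 36, and Slc5a7, the choline transporter, was in 1. The catecholamine genes Ddc and Th were in 2 and 1 of the 36, and Slc32a1 was in 1.

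The genes most like Slc17a6 over the 80 neurons, by Pearson r of log2(TPM + 1) among 4800 genes found in at least 20% of neurons, were Spp1 (0.56), Sparcl1 (0.50), Tgfb2 (0.48), Clasp1 (0.46) and Phtf2 (0.45). Within the 52 pLSOs these values were 0.32 and 0.25 for Spp1 and Sparcl1 and 0.39 for each of the other 3. For Glul, they were Dynlt1a (0.47), Cbr1 (0.45), Cry2 (0.43), Clptm1 (0.42) and Tars (0.41). Neurons share the same libraries and depth in these values, and no test was attached to them.

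Electrophysiological features, 16 per neuron, were set beside the members. Within pLSOs, Spearman's rho with Slc17a6 lay between -0.31 and 0.08 (n = 49 to 52) and Pearson's r between -0.41 and 0.04, the lowest of both for the decay of inhibitory synaptic currents. The pLSOs mix Onset and Sustained neurons. Within Onset neurons alone, rho and r for that decay were -0.19 and -0.26 (n = 40). With Glul in pLSOs, rho lay between -0.20 and 0.18 and r between -0.21 and 0.31. Within Onset neurons alone (n = 39 to 41), these ranges for Glul were -0.28 to 0.16 and -0.37 to 0.20. Within LOCs (n = 19 to 28), rho lay between -0.34 and 0.28 for Slc17a6 and between -0.37 and 0.40 for Glul, the last with input resistance, where r was 0.31. These are a description over neurons of unnamed animals, and no relation is read from them.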

How the data were processed

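The authors amplified the harvested RNA with a Smart-seq2 variant and finished the libraries with Nextera XT. Per the labels, the authors used FastQC, Trim Galore 0.4.2, STAR, Picard 1.115, featureCounts and mm10. The score values of the deposited table are TPM, which the authors rounded to whole numbers, and each library summed to between 999773 and 1000026. The columns all belonged to samples of the series.

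Names, positions and exon lengths came from Gencode vM21 (GRCm38), in which 37570 of 38887 genes had a length. A gene was detected at 1 TPM or more. Differences are of mean log2(TPM + 1), with a pseudocount of 1, counting genes that 5% of neurons or more held, and 1 or more counted as a difference. As the labels name no animal, no test across classes was made. The files hold no read counts. Estimated reads were read off the whole-number steps of the first rows, from up to 60 low values per library. Sorted lengths less 80 bases served as divisors. A run on simulated data used the same divisors, so it could not show whether they hold for the deposited values. Estimated reads are approximate, the more so at 1 TPM.

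Named were the 4 members, listed genes that averaged 10 TPM or more in either neuron class or lay beside Slc17a6, and the 5 genes most like Slc17a6 and Glul. Others (Slc17a5, Slc17a9, Slc38a6, Slc38a7 and cell_76's values) were chosen after their values were seen. Members and lists were chosen with earlier results of these data known. Slc18a3 was not analysed here, and some genes that the lists held are not reported here. Alternatives were another detection threshold, pseudocounts, rescaling, libraries and a gene filter. The tools were SciPy 1.17.1, NumPy 2.4.6 and pandas 2.3.3 under Python 3.11.15, with matplotlib 3.10.9.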

Additional observations from a re-analysis of the deposited data

Results flagged for a closer look

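Among the 8 NCs, Glul was at 189 TPM in NC4 and listed at 0 in the other 7, so NC4 stood far from the rest. Slc17a6 was checked in the same way and no NC stood apart, and Slc17a7 and Slc17a8 were at 0 in every NC. With 7 of 8 values at 0, any lone value above 0 stands apart in such a check.

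The other values concern libraries that the comparisons did not use, and each lay above the highest of the 8 NCs. Slc17a8 was listed at 1340 TPM in cell_40, labelled as an Onset neuron, in a library of 1002 genes, and this was about 79.0 estimated reads. Slc17a7 was listed at 1 TPM, about 2.81 estimated reads, in cell_85, labelled as a LOC. The library labelled NC6 held 138 TPM of Slc17a6, with 3104 genes detected, more than the 1271 genes of the richest NC compared. The library labelled NC5 held 276 TPM of Glul and 782 TPM of Spp1. These values have no replicate.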

How the results depend on the processing

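Over 11 results and 56 alternatives, 48 stayed within the limits set for them and 8 moved. For a share, the limit was its interval. For a difference, it was the SD over pLSO or Onset neurons (2.67 to 2.97), so wide that staying within it says little. A change of direction could be counted only for the Slc17a6 difference between pLSOs and LOCs, and none was found. At 10 TPM as the detection threshold, the Slc17a6 share of LOCs was 3.57%, the Glul share of pLSOs 19.2% and the co-detection of Slc17a6 with Gad2 or Slc6a5 in pLSOs 7.69%. At 10 estimated reads, a threshold chosen after seeing the data, the first 2 of these were again 3.57% and 19.2%. The number of genes with a difference of 1 or more between pLSOs and LOCs was 1204 as reported, 2490 with a pseudocount of 0.1, 385 with a pseudocount of 10 and 1985 on estimated reads scaled to library depth, also chosen later. The construction of these scales sets how far low values spread. The Slc17a6 difference between pLSOs and LOCs ranged from 1.52 (pseudocount 10) to 4.69 (pseudocount 0.1) and was 4.17 after rescaling to gene length. That between Onset and Sustained neurons ranged from 0.50 to 1.49 and passed 1 with all labelled neurons (1.07), a pseudocount of 0.1 (1.46), rescaling (1.35), depth-scaled estimated reads (1.49) and without the highest neuron of each class (1.20). The Glul difference ranged from -1.05 to -0.04 and passed 1 in size only in neurons with at least 2000 genes. The median difference over all genes, pLSO minus LOC, was 0.07 in TPM, 0.14 after rescaling and 0.16 in depth-scaled reads.

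No paired analysis was possible because the replicate numbers only name the samples and no test was made. Values under 0.5 TPM were lost to rounding, so 0 for Slc17a7 says little about fewer than an estimated 17.5 reads in a typical neuron.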
